A study of Oryza sativa with 58 samples.

Results

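The 6 genes described here encode the red and far-red light receptors phyA (LOC_Os03g51030), phyB (LOC_Os03g19590) and phyC (LOC_Os03g54084) and the blue light receptors CRY1a (LOC_Os02g36380), CRY1b (LOC_Os04g37920) and CRY2 (LOC_Os02g41550) of rice. Their membership was set by a list of identifiers with no threshold on a measured value, and all 6 were present among the 55986 genes listed for young leaf. By their identifiers, the 3 phytochrome genes lie on chromosome 3, CRY1a and CRY2 on chromosome 2 and CRY1b on chromosome 4. The study profiled the epigenome and transcriptome of rice varieties by ChIP-Seq, DNA methylation, open chromatin and RNA-Seq. The RNA-Seq data used here are 34 libraries of young leaf, 2 for each of 17 varieties, taken from 2-week-old seedlings grown hydroponically in a phytotron with 14 h of light at 32 °C and 10 h of dark at 28 °C. The varieties are 9311, Aijiaonante, BASMATI 385, Garia, Gasym Hany, Ginga, HKG 98, IR72, LABELLE, Latisai1, Nanjing11, PeiC122, TAINO 38, WH139, Xibaizhan, Y134 and Yong Chal Byo. No variety is named as a control, none carries a transgene by its labels, and the hour of harvest is not given.

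Phytochromes carry a bilin chromophore and switch between a form that absorbs red light and an active form that absorbs far-red light, which moves into the nucleus and acts on phytochrome-interacting transcription factors. phyA is light-labile and is best known for responses to far-red light, whereas phyB and phyC are the light-stable types, and in grasses they take part in de-etiolation, shade responses and the photoperiodic control of heading. Cryptochromes bind a flavin, are activated by blue light and restrain the COP1 ubiquitin ligase, and CRY2 is in Arabidopsis the member whose protein is degraded under blue light. The values here are transcript levels in whole leaf, so less RNA per cell and fewer cells of a type cannot be told apart, and they say nothing of protein.

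Expression was deposited as FPKM, fragments per kilobase of transcript and per library size, which is scaled to gene length. Levels of different genes were set side by side on this scale. An error in the value of a gene that is the same in all libraries would remain in them. The number of reads behind a value is unknown. The depth of a library relative to HKG 98 replicate 1 was between 0.427 and 1.02 (median 0.704), and between 18170 and 20083 genes per library were above 1 FPKM. Whether the 2 libraries of a variety came from separate plants is not stated. The p-values for differences between varieties therefore measure the spread between these libraries, which may be technical. Those for the order of the levels measure the spread over the 17 variety means. Of the 6 genes entered as leaf markers (Rubisco small subunit, Rubisco activase and light-harvesting genes), the summed level was between 18256 and 35350 FPKM. The 3 root markers summed to between 4.44 and 11.9 FPKM, and the 6 meristem and floral markers to between 3.51 and 14.9 FPKM, with 1 and 3 of them below 1 FPKM in every library.

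One library stood apart. The log2 values of PeiC122 replicate 1 correlated with those of its own replicate at r = 0.873 across genes, against 0.951 to 0.989 in the other 16 varieties, and 4481 tested genes (18.2%) differed over 2-fold between the PeiC122 libraries, against 233 to 876 in the others. It lay below all other 33 libraries for 19.6% of the tested genes and above them for 20.5%. Results on the photoreceptors that rest on it are therefore given with and without this library.

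The cryptochromes were the more highly expressed family. Among the 34 libraries CRY1b had between 43.7 and 68.8 FPKM with a median of 58.8. CRY1a lay between 20.6 and 53.0 FPKM (median 45.9), and 35.4 FPKM was its lowest level outside PeiC122 replicate 1. CRY2 ranged from 21.5 to 52.9 FPKM (median 30.5), with 41.3 FPKM as its highest level outside PeiC122 replicate 1. The phytochromes lay lower. phyC had between 15.9 and 35.8 FPKM (median 23.3), phyA between 11.98 and 47.8 FPKM (median 18.95) and phyB between 12.1 and 31.5 FPKM (median 17.6). Without PeiC122 replicate 1 the highest levels of phyC and phyA were 31.1 and 26.7 FPKM.

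**Figure D1:**
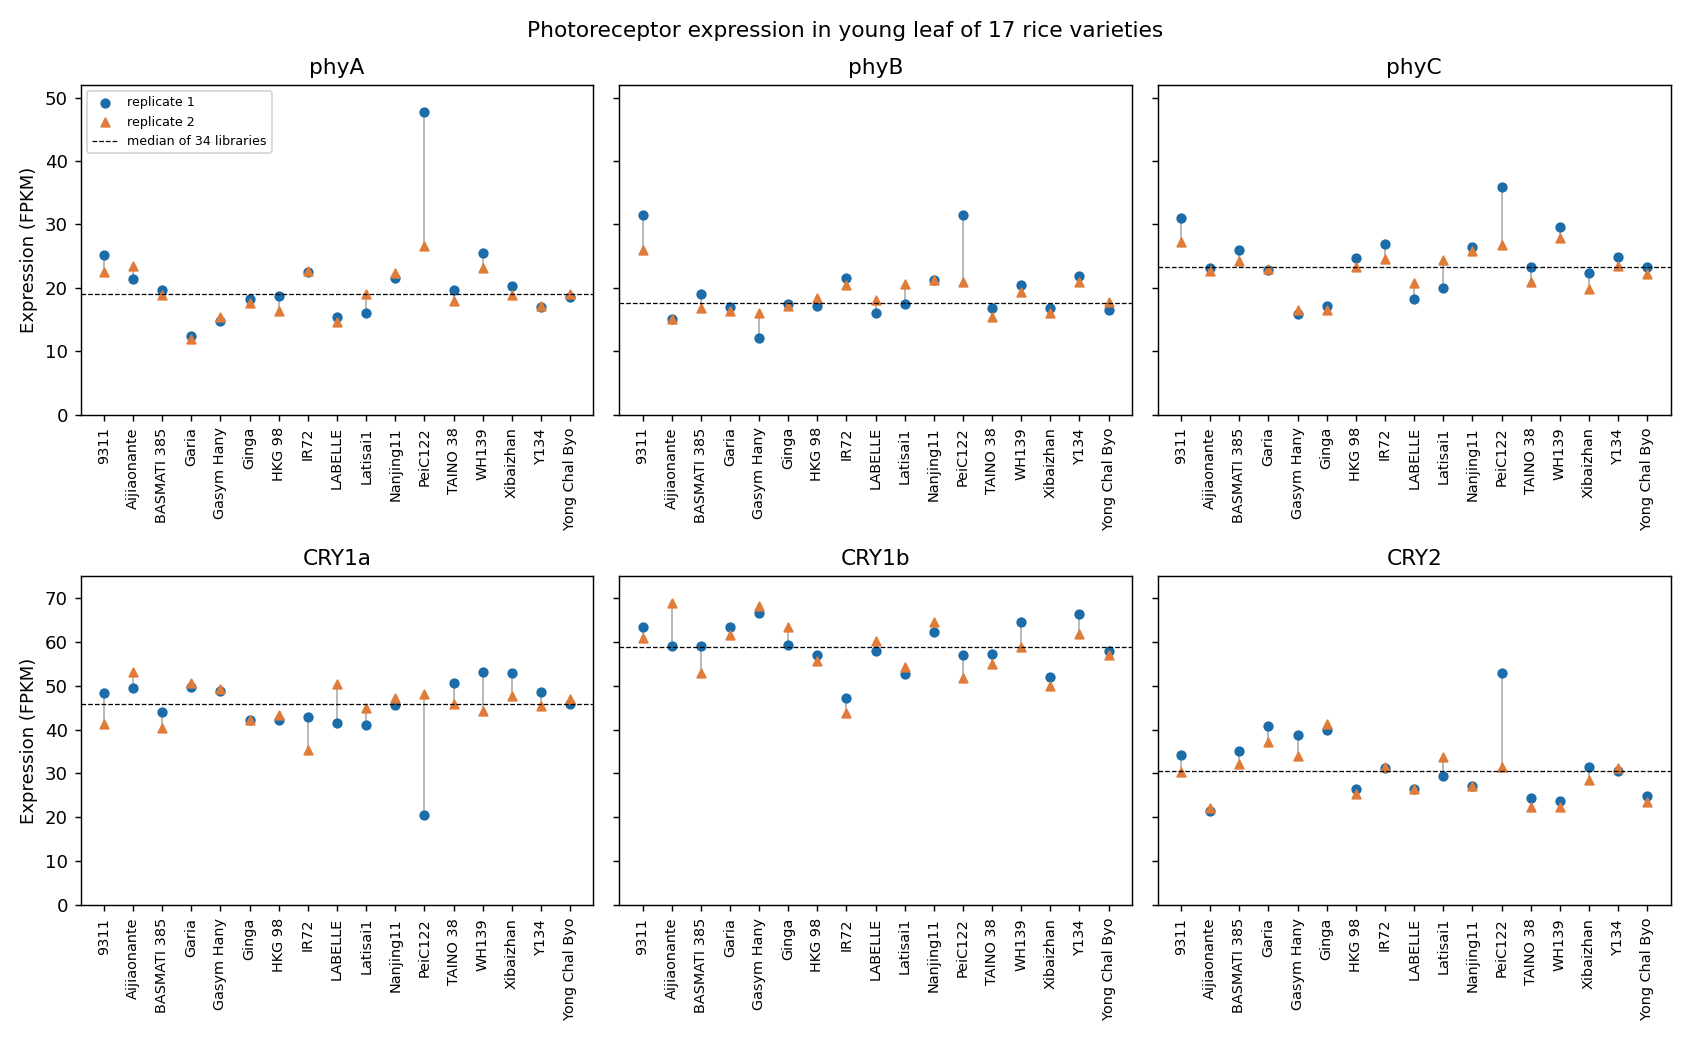
Expression in FPKM (y axis, linear from 0, one scale per row of panels) of the 3 phytochromes and 3 cryptochromes in young leaf of 17 varieties (x axis). Circles are replicate 1, triangles replicate 2, grey lines join the libraries of a variety, and the dashed line is the median of 34 libraries. phyA is at 47.8 FPKM and CRY1a at 20.6 FPKM in PeiC122 replicate 1, outside the other 33 libraries, and both Garia libraries are lowest for phyA.

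The order of the levels was tested between neighbours over the 17 variety means of log2(FPKM + 1). A two-sided paired permutation test of 100000 resamples was used, adjusted over the 5 neighbouring pairs. The order came from these same means, so the pairs were not chosen independently of the values tested. An error in a gene's value shared by all libraries recurs in every variety. The test therefore cannot tell it from a difference in transcript level. CRY1b was above CRY1a in all 17 varieties and in 33 of 34 libraries, by 0.37 ± 0.16 on the log2 scale (SD over 17 varieties, permutation test, adjusted p = 0.0001). The unadjusted p of 2e-05 is the smallest these resamples can give. CRY1a was above CRY2 in 16 of 17 varieties by 0.57 ± 0.39 (permutation test, adjusted p = 0.0004). CRY2 was above phyC in 15 of 17 varieties by 0.35 ± 0.40 (permutation test, adjusted p = 0.001), and phyC was above phyA in 15 of 17 varieties by 0.25 ± 0.24 (permutation test, adjusted p = 0.000867). phyA and phyB, the neighbours at the low end, were not separated: phyA was the higher in 11 of 17 varieties and in 22 of 34 libraries, and their difference of 0.06 ± 0.26 did not pass the test (permutation test, adjusted p = 0.375).

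Expression across the varieties was tested for the 24568 genes whose mean passed 1 FPKM in some variety, by a moderated F test in limma on log2(FPKM + 1). A gene was called where its Benjamini-Hochberg adjusted p was below 0.01 and its highest and lowest variety means were over 1.5-fold apart on that scale. All 6 photoreceptors were tested, and 4 of them were called (phyA, phyB, phyC and CRY2), a share of 66.7% against 68.8% of all genes tested. The share of photoreceptors called was thus close to the background. The median difference between the highest and the lowest variety mean was 0.88 on the log2 scale for the 6 genes, against 1.24 for all genes tested and 1.06 for the 11950 genes with a mean log2 value above 3. Without PeiC122 replicate 1 the same 4 photoreceptors were called, against 73.7% of all genes tested.

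phyA had the widest range of the 6 genes. Its variety means had a coefficient of variation of 27.5%, and of 19.4% without PeiC122 replicate 1, close to the 18.4% of CRY2 and 18.2% of phyB without that library. The means of PeiC122 and Garia were 2.78-fold apart (limma F test, adjusted p = 2.32e-05). Without PeiC122 replicate 1 they were 2.10-fold apart (limma F test, adjusted p = 4.53e-08). phyA had 47.8 and 26.7 FPKM in PeiC122, 25.5 and 23.2 in WH139, 25.2 and 22.5 in 9311, 21.4 and 23.4 in Aijiaonante, 22.4 and 22.6 in IR72, and 21.6 and 22.4 in Nanjing11. It had 20.2 and 18.9 FPKM in Xibaizhan, 19.6 and 18.8 in BASMATI 385, 18.6 and 19.1 in Yong Chal Byo, 19.6 and 17.96 in TAINO 38, 18.2 and 17.6 in Ginga, 18.7 and 16.3 in HKG 98, 15.98 and 19.01 in Latisai1, and 16.97 and 17.1 in Y134. At the low end were Gasym Hany with 14.8 and 15.3 FPKM, LABELLE with 15.4 and 14.6, and Garia with 12.4 and 11.98. The 2 Garia libraries were below all 32 others, the 2 PeiC122 libraries above all 32 others, and most varieties in between overlapped with their neighbours.

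Each variety was then set against the mean of the other 16 in the same fit, which gives 102 combinations of photoreceptor and variety. Calls needed an adjusted p below 0.01, adjusted over all genes within a variety, and a difference over 1.5-fold. Of the 102 combinations 3 were called (2.94%), against 13.8% of the combinations of all tested genes with the 17 varieties. Counted at any fold, 19 combinations (18.6%) had an adjusted p below 0.01, against 22.9% of all combinations. Without PeiC122 replicate 1 there were 2 calls, against 14.4% of all combinations, and 27 (26.5%) at any fold, against 30.4%, with 15 combinations in both counts at any fold. All 17 comparisons draw on the same 34 libraries. All 17 varieties are listed under one set of gene identifiers. The part of sequence differences between varieties in the mapping of reads, and so in these values, was not tested.

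**Figure D2:**
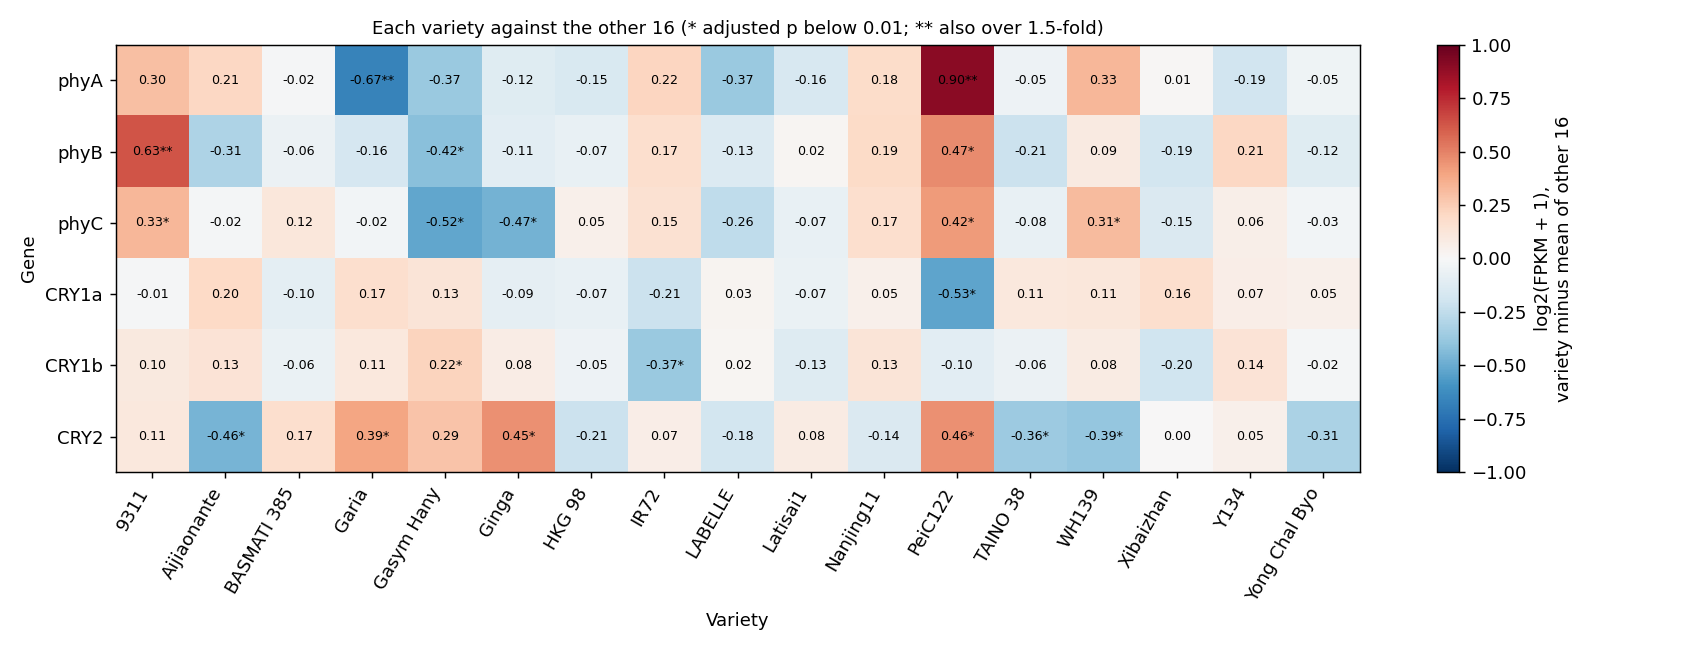
Difference in log2(FPKM + 1) between each variety (x axis) and the mean of the other 16, for each photoreceptor (y axis), red where the variety was higher and blue where it was lower. 1 star marks an adjusted p below 0.01 and 2 stars a difference that was also over 1.5-fold, which applied to phyA in Garia (-0.67) and PeiC122 (0.90) and to phyB in 9311 (0.63).

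phyA was lower in Garia than in the other 16 varieties, by a log2 difference of -0.67 (SE 0.11, 0.629-fold, limma, adjusted p = 9.61e-05, lower in 2 of 2 libraries), where 6.71% of all tested genes were called lower. Without PeiC122 replicate 1 the difference was -0.64 (limma, adjusted p = 2.73e-08), where 7.38% of all tested genes were called lower. phyB and phyC did not follow phyA in Garia, with log2 differences of -0.16 and -0.02 that missed the threshold. All FPKM summed to 1442721 and 1061020 in the Garia libraries, against a median of 781367 over libraries. The genes above 10 FPKM had a median log2 deviation of 0.09 and 0.07 in them. Scaling to equal totals was not tested. The summed leaf markers in Garia, 35327 and 34681 FPKM, were near the high end of the range over libraries, and the part of leaf composition in the phyA difference was not tested.

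phyA was higher in PeiC122 than in the other 16 varieties by 0.90 on the log2 scale (SE 0.11, 1.87-fold, limma, adjusted p = 2.73e-06), where 9.22% of all tested genes were called higher. This call rested on replicate 1. With replicate 2 alone for PeiC122, whose spread is then taken from the other varieties, the difference was 0.49 (limma, adjusted p = 0.000134), which is below 1.5-fold and was not called, while 6.22% of all tested genes were called higher. Also without that library, 9 of the 17 varieties differed from the others in phyA at an adjusted p below 0.01 at any fold (52.9%, against 30.4% over all genes), and 2 with it (11.8%, against 22.9%). They were Aijiaonante, WH139, Nanjing11, 9311, IR72 and PeiC122 on the higher side and Garia, LABELLE and Gasym Hany on the lower side.

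phyB was highest in 9311. It had 31.5 and 25.95 FPKM in 9311, 31.4 and 20.9 in PeiC122, 21.9 and 20.98 in Y134, 21.2 and 21.2 in Nanjing11, 21.5 and 20.4 in IR72, and 20.4 and 19.3 in WH139. It had 17.4 and 20.5 FPKM in Latisai1, 19.03 and 16.9 in BASMATI 385, 17.1 and 18.4 in HKG 98, 17.5 and 17.1 in Ginga, 16.6 and 17.8 in Yong Chal Byo, 15.98 and 18.1 in LABELLE, 17.004 and 16.3 in Garia, and 16.8 and 15.98 in Xibaizhan. It had 16.8 and 15.4 FPKM in TAINO 38, 15.1 and 15.1 in Aijiaonante, and 12.1 and 16.02 in Gasym Hany. The 9311 libraries were above all others except PeiC122 replicate 1, while the middle varieties overlapped. The highest and lowest variety means, of 9311 and Gasym Hany, were 1.98-fold apart (limma F test, adjusted p = 0.000218).

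phyB was higher in 9311 than in the other 16 varieties by 0.63 on the log2 scale (SE 0.10, 1.55-fold, limma, adjusted p = 6.48e-05, higher in 2 of 2 libraries), where 7.4% of all tested genes were called higher. The call was lost without 9311 replicate 1, at 0.49 (limma, adjusted p = 0.0155), and was kept without PeiC122 replicate 1, at 0.65 (limma, adjusted p = 1.33e-06), where 7.98% of all tested genes were called higher. In 9311 the meristem and floral markers summed to 3.51 and 5.55 FPKM and the leaf markers to 20286 and 18256 FPKM. These sums were low within the ranges over libraries. The meristem and floral sum of TAINO 38 replicate 1, 4.80 FPKM, lay between those of 9311, and its phyB was 16.8 FPKM. Some light pathway lists described further on were low in 9311 as well. The clock genes summed to 811 and 754 FPKM and the COP1 and HY5 genes to 153 and 152 FPKM. The phytochrome-interacting factor-like genes summed to 122 and 118 FPKM. The part of these levels in the phyB difference was not tested. phyB was also lower in Gasym Hany, by -0.42 (limma, adjusted p = 0.00462), and higher in PeiC122, by 0.47 (limma, adjusted p = 0.00089), both under 1.5-fold, and the PeiC122 difference was 0.19 without replicate 1 (limma, adjusted p = 0.232). Aijiaonante passed 0.01 in that fit, at -0.29 (limma, adjusted p = 0.00691).

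phyC varied with a coefficient of variation of 17.1% among variety means. Its levels were 35.8 and 26.7 FPKM in PeiC122, 31.1 and 27.2 in 9311, 29.6 and 27.8 in WH139, 26.4 and 25.7 in Nanjing11, 26.97 and 24.5 in IR72, and 25.97 and 24.3 in BASMATI 385. They were 24.9 and 23.5 FPKM in Y134, 24.8 and 23.3 in HKG 98, 23.2 and 22.7 in Aijiaonante, 22.7 and 22.9 in Garia, 23.3 and 22.2 in Yong Chal Byo, 20.0 and 24.3 in Latisai1, 23.3 and 20.8 in TAINO 38, and 22.4 and 19.7 in Xibaizhan. The lowest were 18.3 and 20.7 FPKM in LABELLE, 17.1 and 16.5 in Ginga, and 15.9 and 16.5 in Gasym Hany. Ginga and Gasym Hany overlapped with each other and lay below all other libraries. The variety means of PeiC122 and Gasym Hany were 1.85-fold apart (limma F test, adjusted p = 2.02e-05), and without PeiC122 replicate 1 those of 9311 and Gasym Hany 1.74-fold (limma F test, adjusted p = 2.30e-06).

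None of the phyC differences between a variety and the rest reached 1.5-fold. Those with an adjusted p below 0.01 were Gasym Hany at -0.52, Ginga at -0.47, PeiC122 at 0.42, 9311 at 0.33 and WH139 at 0.31 on the log2 scale (limma, adjusted p between 6.25e-05 and 0.00505). Without PeiC122 replicate 1 the difference of PeiC122 was 0.22 (limma, adjusted p = 0.0857), and LABELLE passed 0.01 at -0.24 (limma, adjusted p = 0.0044).

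The levels of the 3 phytochromes tended to vary together over the varieties. Over the 17 variety means of log2(FPKM + 1), Pearson's r was 0.77 between phyC and phyB (Spearman's rho 0.80), 0.70 between phyC and phyA (rho 0.71) and 0.64 between phyA and phyB (rho 0.48). Without PeiC122 these were 0.72, 0.61 and 0.51 over 16 varieties. When only PeiC122 replicate 1 was left out they were 0.73, 0.64 and 0.53. Without the 2 of all 17 varieties farthest from the median of the first-named gene they were 0.80, 0.76 and 0.53. PeiC122 is still included in the values of phyC, and left out with Garia in that of phyA and phyB. The points share libraries, and the genes of a pair share the scaling of each library, so these values are a description.

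Their proportions still differed between varieties. The ratio of phyA to phyB lay between 0.731 and 1.55 in single libraries, with a mean of 0.734 in Garia and of 1.49 in Aijiaonante. In Aijiaonante phyA was thus above the median of all libraries and phyB below it, and in Garia both were below it. The ratio of phyC to phyB was above 1 in 31 of 34 libraries, and its lowest variety mean, 0.972, was in Ginga. phyA was above phyC in 4 of 34 libraries, among them PeiC122 replicate 1. Of the summed phytochrome FPKM, phyA made up between 23.4% and 41.5%, phyB between 24.7% and 35.9%, and phyC between 31.1% and 44.8%. Outside PeiC122 replicate 1 the highest share of phyA was 38.2% and the lowest share of phyC 32.3%.

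**Figure D3:**
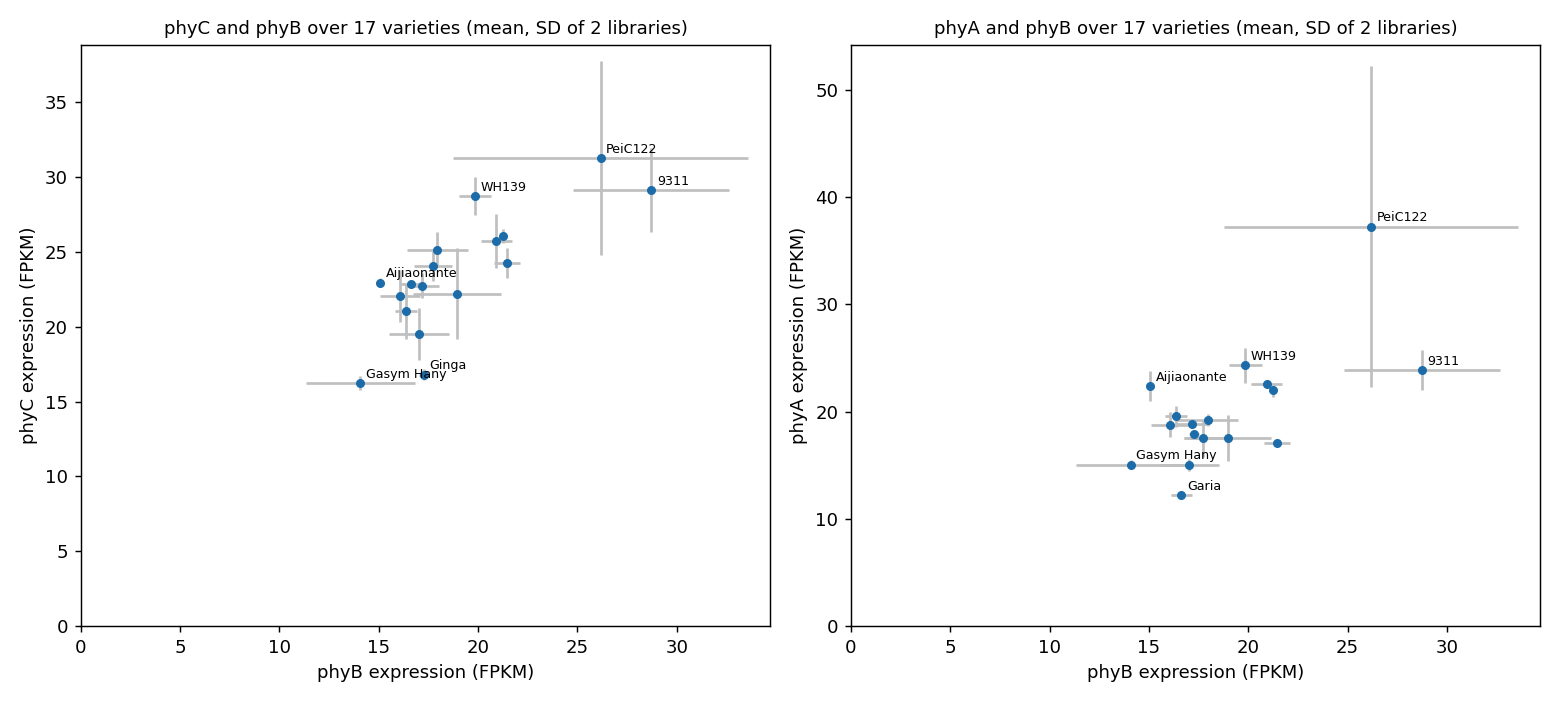
Expression of phyC (left, y axis) and phyA (right, y axis) against phyB (x axis), all in FPKM on linear axes from 0, where each point is the mean of a variety and the bars are the SD of its 2 libraries. phyC and phyB are aligned (r = 0.77 on the log2 scale), and Aijiaonante and Garia lie on opposite sides in the panel of phyA, with ratios of phyA to phyB of 1.49 and 0.734.

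Among the cryptochromes, CRY2 was the one that was called across the varieties. CRY2 had 52.9 and 31.4 FPKM in PeiC122, 39.9 and 41.3 in Ginga, 40.8 and 37.2 in Garia, 38.7 and 34.003 in Gasym Hany, 35.1 and 32.0 in BASMATI 385, and 34.1 and 30.4 in 9311. It had 29.5 and 33.8 FPKM in Latisai1, 31.3 and 31.4 in IR72, 30.6 and 31.4 in Y134, 31.5 and 28.6 in Xibaizhan, 27.2 and 27.1 in Nanjing11, 26.5 and 26.5 in LABELLE, and 26.4 and 25.4 in HKG 98. It had 24.8 and 23.6 FPKM in Yong Chal Byo, 24.5 and 22.4 in TAINO 38, 23.6 and 22.4 in WH139, and 21.5 and 22.2 in Aijiaonante. Outside PeiC122, Ginga and Garia were highest and overlapped with each other, and the Aijiaonante libraries were below all others by a small margin. The means of PeiC122 and Aijiaonante were 1.83-fold apart (limma F test, adjusted p = 6.92e-05), and without PeiC122 replicate 1 those of Ginga and Aijiaonante 1.82-fold (limma F test, adjusted p = 3.37e-08).

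Against the other 16 varieties, CRY2 was higher in Ginga by 0.45, in PeiC122 by 0.46 and in Garia by 0.39, and lower in Aijiaonante by -0.46, in WH139 by -0.39 and in TAINO 38 by -0.36 on the log2 scale (limma, adjusted p between 0.00113 and 0.0091). All were below 1.5-fold. The PeiC122 difference was 0.09 without its replicate 1 (limma, adjusted p = 0.426). In that fit Gasym Hany at 0.31 (limma, adjusted p = 0.00022) and Yong Chal Byo at -0.29 (limma, adjusted p = 0.00046) also passed 0.01, which makes 7 varieties against 6. The varieties ranked differently than for phyA: Garia, lowest for phyA, was among the highest for CRY2, and WH139 and Aijiaonante, on the high side for phyA, were at the low end for CRY2. PeiC122 had the highest variety mean of both genes, although for CRY2 Ginga was highest without PeiC122 replicate 1. Over the variety means r between CRY2 and phyA was -0.06, and -0.48 over the 16 varieties without PeiC122. It was -0.39 when only PeiC122 replicate 1 was left out. Without WH139 and Aijiaonante, the 2 farthest from the CRY2 median, it was 0.11 over 15 varieties, which still include PeiC122. These values are a description.

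CRY1b had the highest level and, over all 34 libraries, the narrowest range between variety means. The range of CRY1a was narrower once PeiC122 replicate 1 was left out, at 0.39 against 0.56 for CRY1b on the log2 scale. The variety means of CRY1b had a coefficient of variation of 9.50%. Those of Gasym Hany and IR72 were 1.47-fold apart, a range on the log2 scale that was at the 5.38th percentile of all genes tested. The F test gave a small adjusted p (limma, adjusted p = 0.000196), but the fold rule was not met. CRY1b had 66.5 and 68.2 FPKM in Gasym Hany and 47.3 and 43.7 FPKM in IR72. The IR72 libraries were below all 32 others, whereas both Gasym Hany libraries lay within reach of Aijiaonante, at 59.0 and 68.8 FPKM. IR72 differed from the other 16 varieties by -0.37 (SE 0.06, 0.773-fold, limma, adjusted p = 3.08e-05) and Gasym Hany by 0.22 (SE 0.06, 1.16-fold, limma, adjusted p = 0.00626). The summed leaf markers were 19044 and 19479 FPKM in IR72, near the low end over libraries, and 34142 and 35350 FPKM in Gasym Hany, near the high end. The meristem and floral markers summed to 10.1 and 12.2 FPKM in IR72. The part of these levels in the CRY1b differences was not tested. Xibaizhan also passed 0.01 once PeiC122 replicate 1 was left out, at -0.20 (limma, adjusted p = 0.00368). When Aijiaonante replicate 1 or IR72 replicate 1 was left out, CRY1b passed the fold rule as well, at log2 ranges of 0.59 and 0.61.

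CRY1a did not pass the test across varieties (limma F test, adjusted p = 0.387). Its variety means lay between 34.3 ± 19.4 FPKM in PeiC122 and 51.2 ± 2.52 FPKM in Aijiaonante (SD, n = 2 each), and PeiC122 had 20.6 FPKM in replicate 1 and 48.0 FPKM in replicate 2. Without replicate 1 of PeiC122 the highest and lowest variety means were 1.31-fold apart (limma F test, adjusted p = 0.0721). Without replicate 2, the log2 range was 1.28 and CRY1a was called (limma F test, adjusted p = 1.80e-05). Against the other 16 varieties CRY1a in PeiC122 differed by -0.53 (limma, adjusted p = 0.00837), and by 0.06 without replicate 1 (limma, adjusted p = 0.717).

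CRY1b stayed above CRY1a by a small factor in most libraries. The ratio of CRY1b to CRY1a was above 1 in 33 of 34 libraries and at most 1.50 outside PeiC122 replicate 1, where it was 2.77. Its lowest variety mean was 1.02, in Xibaizhan. The ratio of CRY2 to CRY1b was between 0.323 and 0.719 outside that library, and lowest in Aijiaonante. The summed cryptochrome FPKM lay between 111 and 154 over the libraries, at 130 and 131 in the PeiC122 libraries. The summed phytochrome FPKM lay between 42.8 and 87.7 outside PeiC122 replicate 1 and was 115 in it. Over the 17 variety means r between CRY1b and CRY1a was 0.48 (rho 0.54), and that between CRY1a and phyA was -0.60, which was -0.18 without PeiC122.

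In PeiC122 the 2 libraries differed in 5 of the 6 genes by more than the libraries of any other variety did, as did 50.9% of all genes tested. The median size of the difference over all genes tested was 0.47 on the log2 scale, and among these the photoreceptors ranked between the 21.2nd percentile (CRY1b) and the 85.4th (CRY1a). phyA was higher in replicate 1 than in replicate 2 by 0.82 on the log2 scale, CRY2 by 0.73, phyB by 0.56 and phyC by 0.41, CRY1a was lower by -1.18, and CRY1b differed by 0.14. The largest difference between replicates in the other 16 varieties, in either direction, was 0.24 for phyA, 0.19 for CRY2, 0.37 for phyB, 0.27 for phyC, 0.28 for CRY1a and 0.22 for CRY1b. After quantile normalization the PeiC122 differences were 0.84 for phyA, 0.77 for CRY2, 0.57 for phyB, 0.42 for phyC and -1.16 for CRY1a. The median difference between the PeiC122 libraries over the 10519 genes above 10 FPKM was 0.04 as deposited and 0.13 after quantile normalization, and of the 4481 genes over 2-fold apart 4228 were lower in replicate 1. Among the leaf markers, LOC_Os09g17740 had 179 FPKM in replicate 1 and 1477 FPKM in replicate 2, and LOC_Os01g41710 had 430 FPKM in replicate 1 and 2262 FPKM in replicate 2. Of the other leaf markers, LOC_Os12g19470 (1401 and 1075 FPKM) and LOC_Os12g17600 (7953 and 7678 FPKM) were higher in replicate 1. LOC_Os11g47970 (10327 and 11207 FPKM) and LOC_Os12g19381 (1668 and 2636 FPKM) were lower in it. The summed leaf markers were 21958 and 26333 FPKM and the summed meristem and floral markers 13.4 and 9.09 FPKM in replicates 1 and 2, all within the range of the other libraries. Of the light pathway lists described further on, the COP1 and HY5 sum was also within it (216 FPKM in replicate 1). Replicate 1 was above the other 33 libraries in the summed clock genes (1679 FPKM, against at most 1409). It was also above them in the other blue light receptors (375 FPKM, against at most 322). It was below them in the chromophore genes (69.5 FPKM, against at least 130) and the phytochrome-interacting factor-like genes (115 FPKM, against at least 118). LOC_Os08g06110 alone had 1471 FPKM of the clock sum, and LOC_Os06g40080 60.2 FPKM of the chromophore sum. Above all others were 3 of 10 clock genes, 3 of 6 other blue light receptors and 1 of 5 genes each in the factor-like and COP1 lists. Below were 1 of 2 chromophore genes and 2 of 5 genes each in the latter 2 lists. Of the 6 photoreceptors 3 were above all other libraries and 1 was below. Over all genes tested the shares were 20.5% above and 19.6% below, the background for these short lists. The part of leaf composition in these differences was not tested.

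**Figure D4:**
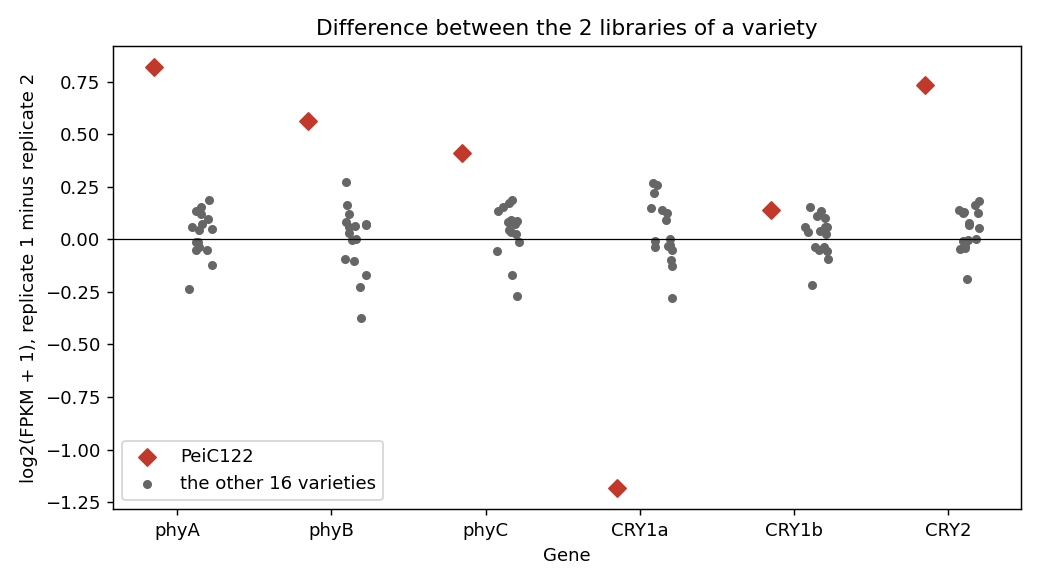
Difference in log2(FPKM + 1) between replicate 1 and replicate 2 of a variety (y axis) for each photoreceptor (x axis), in PeiC122 (diamonds) and in the other 16 varieties (dots, spread sideways for visibility). PeiC122 is outside the dots for 5 of the 6 genes, at 0.82 for phyA and -1.18 for CRY1a, and within them for CRY1b at 0.14.

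For context, genes entered under the same light pathways were read from the same fit. The identifiers of these lists come from general knowledge of rice gene nomenclature and could not be checked against an annotation, so they are given by identifier and list. Of 44 listed genes, 43 were present. The F test called 68.8% of all genes tested, which is the background for the counts of called genes in each short list. Both genes entered for synthesis of the phytochrome chromophore were called, with LOC_Os06g40080 2.50-fold (1.92-fold without PeiC122 replicate 1) and LOC_Os01g72090 1.86-fold apart between the highest and lowest variety mean. Of the 5 tested genes entered as phytochrome-interacting factor-like, 4 were called, the widest being LOC_Os03g43810 (3.63-fold), LOC_Os12g41650 (3.58-fold) and LOC_Os03g56950 (3.18-fold). The other, LOC_Os05g04740, was called once PeiC122 replicate 1 was left out (limma F test, adjusted p = 4.84e-05, against 0.073 with it), which makes 5 of 5. All 5 genes entered for COP1, DET1 and the HY5-type bZIP factors were called, led by LOC_Os01g07880 (6.18-fold), LOC_Os02g10860 (4.03-fold) and LOC_Os06g39960 (3.32-fold). With PeiC122 replicate 1 left out, these 3 were 3.48-fold, 2.87-fold and 3.32-fold apart. In the full set PeiC122 was the lowest variety for LOC_Os06g40080, LOC_Os01g07880 and LOC_Os02g10860.

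Of the 5 tested genes entered as other blue light receptors (phototropins and the ZTL group), 2 were called, LOC_Os12g01140 (4.39-fold) and LOC_Os11g01140 (3.40-fold, and 2.79-fold without PeiC122 replicate 1). They carry the same gene number on different chromosomes, and whether reads were split between them was not tested. The 3 not called had highest and lowest variety means between 1.36-fold and 1.46-fold apart, close to the 1.47-fold of CRY1b. All 9 tested clock genes were called, led by LOC_Os06g05060 (4.11-fold, and 3.38-fold without PeiC122 replicate 1), LOC_Os02g40510 (3.40-fold) and LOC_Os09g36220 (3.23-fold). The median log2 range was 1.68 for the phytochrome-interacting factor-like genes, 1.73 for the COP1 and HY5 genes and 1.50 for the clock genes. It was 1.11 for the chromophore genes and 0.55 for the other blue light receptors, below the 0.88 of the 6 photoreceptors. Over all genes tested it was 1.24. Without PeiC122 replicate 1 it was 1.52 for the COP1 and HY5 genes, 0.92 for the chromophore genes and 0.83 for the photoreceptors. Of the marker lists, 5 of 6 leaf genes, 2 of 2 tested root genes and 2 of 3 tested meristem and floral genes were called. Over all genes tested the share called was 68.8%.

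The genes whose variety means were most like those of each photoreceptor were taken as the 3 with the highest Pearson's r over the 17 varieties, among 24567 tested genes. The highest was LOC_Os03g22740 for phyA (r = 0.95, and 0.92 over 16 varieties without PeiC122, where it was again the highest). For phyB it was LOC_Os06g13650 (r = 0.89, and 0.88 without PeiC122), followed by LOC_Os01g16180 and LOC_Os03g57290, but LOC_Os04g21130 came first without PeiC122 and the other two dropped out of the first 3. For phyC it was LOC_Os04g56140 (r = 0.90, and 0.87 without PeiC122), followed by LOC_Os09g24680 and LOC_Os07g45160, and without PeiC122 LOC_Os07g45160 came first and LOC_Os09g24680 dropped out. LOC_Os06g51330 and LOC_Os07g47290 came next for phyA, but were not among the first 3 without PeiC122. For CRY1b LOC_Os01g61400 (r = 0.89, and 0.90 without PeiC122) and LOC_Os11g10990 (0.86 and 0.91) led, followed by LOC_Os09g38090, which dropped out without PeiC122. For CRY2 the 3 genes LOC_Os08g43810, LOC_Os07g44070 and LOC_Os09g14670 (r between 0.82 and 0.84) were the same with and without PeiC122. For CRY1a LOC_Os10g41100 (r = 0.95), LOC_Os02g02380 and LOC_Os07g37420 led, and none of them was among the first 3 without PeiC122. The variety means share their libraries, and these values are a description.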

How the data were processed

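RNA-Seq libraries were made with an Illumina TruSeq kit. The authors trimmed the reads with Trimmomatic, mapped them with TopHat and deposited FPKM values from Cufflinks (version 2.2.5 in the submitters' processing notes), without counts. Of 58 libraries, 34 list MSU7-type identifiers and were used. The other 24, of 3 varieties, list other identifiers and were not analysed here. Variety and replicate number came from the labels. No library was identical to another. limma (3.58.1, R 4.3.3) was run on log2(FPKM + 1) with lmFit and eBayes with a trend, for genes whose mean passed 1 FPKM in some variety. A fold change on this scale understates that of low genes. FPKM needed this log-scale test in place of a count model. Python 3.11.15, scipy 1.17.1, pandas 2.3.3 and numpy 2.4.6 served the rest. The scripts were tested on simulated data. The text names all 6 photoreceptors, combinations with a variety that were called, the up to 3 called genes of each list with the widest range, and 3 genes most like each photoreceptor. Combinations called at any fold were added after their values were seen. The photoreceptors were set as a list of identifiers with no threshold on values, but they, the other lists and the tests were chosen with earlier results of these data known. Alternatives were another pseudocount, no filter, quantile normalization, no trend, a replicate block, a joint adjustment and leaving out each library. No sequence or coordinate table for these identifiers was used.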

Additional observations from a re-analysis of the deposited data

How the results depend on the processing

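The F test called between 16114 and 20324 genes and 4 or 5 photoreceptors when each library was left out in turn. Calls of a variety against the other 16 were between 2 and 7 in these fits. The 7 calls came without PeiC122 replicate 2, when PeiC122 was represented by replicate 1. Leaving out both PeiC122 libraries, an alternative chosen after seeing the data, left 17988 genes, 4 photoreceptors and 2 calls of a variety. The replicate numbers did not pair the libraries: over 136 pairs of varieties, the deviations of replicate 1 correlated at -0.22 to 0.24 (median 0.0024), with 8 above 0.1. A fit with the replicate number as a block called 16686 genes, 4 photoreceptors and 3 combinations. The neighbours in the order of levels kept their direction and their side of the threshold under every alternative run, with phyA and phyB not separated. The count of leaf marker genes called was unstable, at 2 after quantile normalization and 1 without a filter on low values. A pseudocount of 0.1, no filter, quantile normalization and no trend each left 4 photoreceptors called in the F test and 3 combinations called. A joint adjustment over all varieties, run on the combinations alone, also left 3. FPKM carries no counts, so counting error and detection limits could not be given.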
